A study of Mus musculus with 12 samples.

Results

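The mitochondrial respiratory chain was followed in migrating cortical interneurons of the mouse embryo through 89 nuclear genes, out of 11361 gene symbols read by the arrays. They were all genes with a probe set of a single symbol that starts with Nduf, Sdha, Sdhb, Sdhc, Sdhd, Uqcr, Cox4, Cox5, Cox6, Cox7, Cox8 or Atp5, or is Cycs or Cyc1, and each was read by its probe set with the highest mean over the 12 arrays. By role they were 33 subunits of complex I, 4 of complex II, 9 of complex III, cytochrome c, 13 of complex IV (with Ndufa4, now counted there), 17 of complex V and 12 assembly factors. Cox4i2, Cox7a1, Cox7b, Cox8b, Ndufa4l2, Ndufa11, Ndufb1 and Ndufs6 have no such probe set in the table and were not analysed here.

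Gene expression was measured on 12 Affymetrix Mouse430_2 arrays, 3 for each of 4 groups of cells sorted by fluorescence from dissociated embryonic cortex. MGE cells, from the medial ganglionic eminence, were taken at E14.5 and E18.5 from embryos with the transgene Nkx2-1-Cre Tg and the reporter R26R-YFP fl/fl. In these embryos YFP marks the descendants of cells in which the Cre has acted, whatever their type. CGE cells, from the lateral and caudal ganglionic eminences, came from Nkx2-1-Cre;Dlx1-lox-Venus-lox embryos at E16.5 and E18.5, in which the Dlx1-driven Venus is removed wherever the Cre has acted. Both lines therefore carry the Nkx2-1 Cre transgene, cortices were pooled before sorting, and the number of embryos per array is not stated in the labels or methods. The titles call the 3 arrays of a group biological replicas, but nothing else says that they came from separate litters, so the p-values measure the spread between these arrays.

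The respiratory chain passes electrons from NADH (complex I) and succinate (complex II) through complex III, cytochrome c and complex IV to oxygen, and complex V uses the proton gradient that this builds to make ATP. Most of its subunits are encoded in the nucleus, a small set in mitochondrial DNA, and assembly factors join them without staying in the finished enzyme. Newborn neurons lean on glycolysis less, and on this chain more, as they leave the progenitor state, and migrating neurons carry mitochondria into their leading process.

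Values are log2 intensities as the authors normalised them, so a difference of 1 is a factor of 2 in intensity. Intensities of different probe sets are not amounts of transcript and were not set against each other as such. Of the 89 members, 85 lay above the 40th percentile of their own array (7.10 to 7.17) on at least 3 arrays and entered the tests with 8792 genes in all. Cox6a2 (mean 6.72), Cox6b2 (5.74), Ndufaf1 (6.78) and Ndufb4 (4.49) did not pass, and 68 members had a mean above 10. The 5 comparisons were made with limma over all 12 arrays. The early lineage comparison sets MGE at E14.5 against CGE at E16.5, in which day and lineage cannot be told apart. The late lineage comparison sets MGE against CGE at E18.5. For each lineage a maturation comparison subtracts the earlier day from E18.5, and the early lineage difference taken from the late one gives the change of the lineage difference.

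The promoters of these genes are a known meeting point of NRF1, GABP and YY1, transcription factors of mitochondrial genes, and 4 of them are shown for the members that the results turn on and for cytochrome c, the textbook NRF1 target. Sequences are from RefSeq on GRCm38.p6, 5′ to 3′ on the strand of the gene, and cover the 250 bases before the annotated start. Capitals mark the NRF1 core GCATGCGC or the GABP core CCGGAAG, searched on both strands together with the YY1 core AAGATGGC. The windows are Cycs, chr6:50566570-50566819 on the minus strand, Ndufaf8, chr11:120098684-120098933 on the plus strand, Ndufs8, chr19:3912775-3913024 on the minus strand, and Cox5a, chr9:57520982-57521231 on the plus strand.
Cycs: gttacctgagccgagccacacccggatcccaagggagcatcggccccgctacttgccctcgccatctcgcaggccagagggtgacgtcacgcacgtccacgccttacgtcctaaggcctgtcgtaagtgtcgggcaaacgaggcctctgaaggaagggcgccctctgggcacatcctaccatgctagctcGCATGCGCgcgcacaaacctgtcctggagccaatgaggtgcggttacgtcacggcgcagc
Ndufaf8: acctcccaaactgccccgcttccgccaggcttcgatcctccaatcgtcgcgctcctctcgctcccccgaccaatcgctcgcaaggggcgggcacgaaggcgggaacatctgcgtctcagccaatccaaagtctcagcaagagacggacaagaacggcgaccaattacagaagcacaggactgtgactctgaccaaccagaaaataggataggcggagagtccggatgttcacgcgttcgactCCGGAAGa
Ndufs8: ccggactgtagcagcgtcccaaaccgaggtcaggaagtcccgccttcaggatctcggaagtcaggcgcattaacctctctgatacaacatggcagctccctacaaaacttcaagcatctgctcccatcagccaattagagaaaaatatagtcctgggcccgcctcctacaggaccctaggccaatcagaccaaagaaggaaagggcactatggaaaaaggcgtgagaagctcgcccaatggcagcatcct
Cox5a: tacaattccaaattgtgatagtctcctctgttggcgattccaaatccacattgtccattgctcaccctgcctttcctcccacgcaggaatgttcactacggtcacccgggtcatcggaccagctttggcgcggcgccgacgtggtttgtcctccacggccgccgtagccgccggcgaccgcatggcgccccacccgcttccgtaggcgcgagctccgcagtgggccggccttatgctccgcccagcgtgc
The Cycs promoter holds the NRF1 core 60 bases before the start, and that of Ndufaf8 the GABP core 8 bases before it and a YY1 core past the start. The windows of Ndufs8 and Cox5a hold none of these letters in the bases shown, and that of Ndufs8 has a GABP core past the start. Of the 89 members, 75 had a window of 300 bases (250 before to 50 after the start). The NRF1 core lay in 12 of them (16%), the GABP core in 22 (29.3%) and the YY1 core in 10 (13.3%), with 0 overlapping matches. The shares over 27025 genes with a window were 3.05%, 9.93% and 3.19%, and over the 7168 of the genes tested that had one 6.82%, 22.7% and 6.17%. At least 1 of these cores lay in 37 member windows (49.3%), against 32.2% of the genes tested and 14.9% of all. A match is a description of letters and not a site shown to be bound.

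The mean level of the members was nearly the same in all 4 groups. Their mean was 10.85 ± 0.03 in MGE cells at E14.5, 10.89 ± 0.06 in CGE cells at E16.5, 10.91 ± 0.07 in MGE cells at E18.5 and 10.88 ± 0.20 in CGE cells at E18.5 (SD over 3 arrays), a range of 0.06. The means of the 3 MGE E14.5 arrays lay between 10.82 and 10.88, those of CGE E16.5 between 10.82 and 10.93, those of MGE E18.5 between 10.86 and 10.99 and those of CGE E18.5 between 10.71 and 11.09. All 4 groups overlapped, and the CGE E18.5 arrays spread most.

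**Figure D1:**
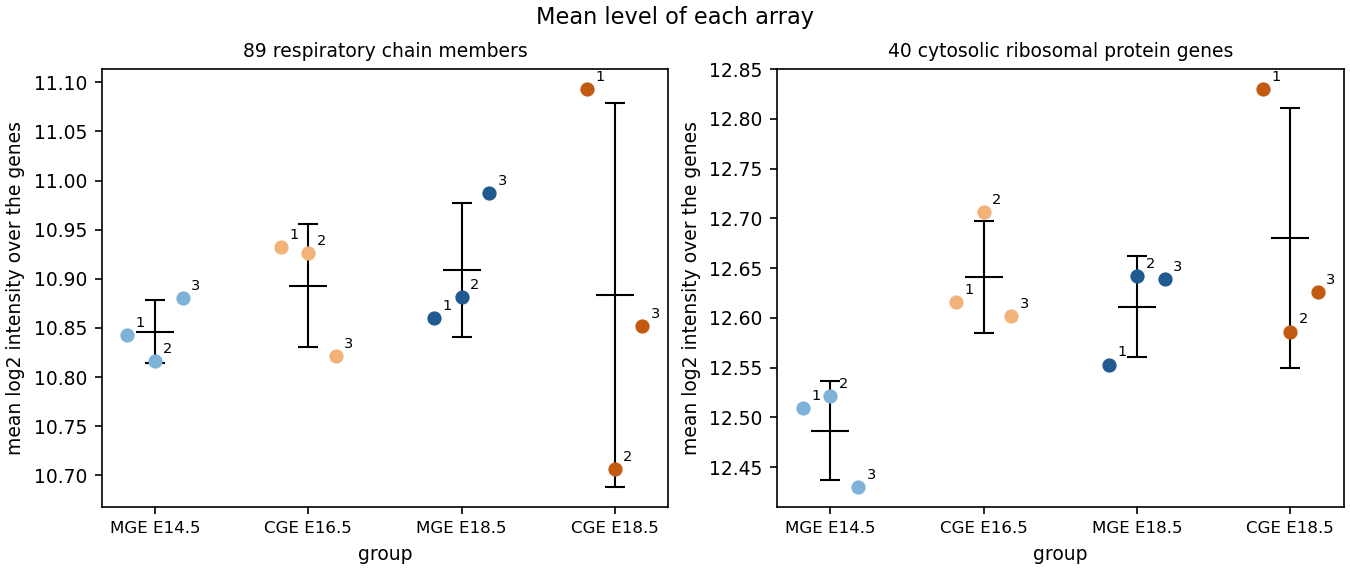
Mean log2 intensity (y axis) on each array, as points by group, with the group mean and SD over 3 arrays. The left panel shows the 89 respiratory chain members, and the right panel 40 genes listed by symbol as cytosolic ribosomal. The group means of the members span 0.06, while CGE E18.5 replicate 1 (11.09) lies 0.388 above replicate 2 of the same group.

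The highest and the lowest member mean of the 12 arrays both lay in the CGE E18.5 group, in replicate 1 (11.09) and replicate 2 (10.71). CGE E18.5 replicate 1 was above replicate 2 in 84 of the 89 members (median difference 0.37) and above replicate 3 in 79 of them (0.26). Over all genes tested the same differences had medians of 0.08 and 0.06, with 57.6% and 56% of the genes higher. The genes listed as cytosolic ribosomal moved in the same direction, with 39 of 40 above replicate 2 and a median of 0.20. Their list was drawn by symbol and also holds Rps19bp1, which is named as a binding protein and not as a ribosomal protein. Of these 40, Rpl14 was called lower in MGE cells in both lineage comparisons, by -1.23 and -0.87. CGE E18.5 replicate 2 was above replicate 3 in 19 of the 89 members (median -0.14), against 48.4% of all genes tested. Results that rest on replicate 1 of this group are therefore given with and without it, and medians also without replicate 2.

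Single members also varied little between groups. The range of a member's 4 group means had a median of 0.25, against 0.47 over all genes tested, and it passed 0.5 in 10 of the 89 members (11.2%) against 46.7% of the genes tested, and passed 1 in 3 members (3.37%) against 18.4%. The median SD within a group was 0.16 for the members and 0.21 for all genes tested. The members' probe sets were also brighter, with a median level of 11.24 against 9.08. The part of signal level in the smaller ranges was not tested. By complex the median range was 0.25 in complex I, 0.19 in complex II, 0.28 in complex III, 0.20 in complex IV, 0.17 in complex V and 0.33 among the assembly factors. Differences are summarised below as log2 values with their standard error, and a gene is called at a Benjamini-Hochberg adjusted p under 0.05 over the 8792 genes.

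**Figure D2:**
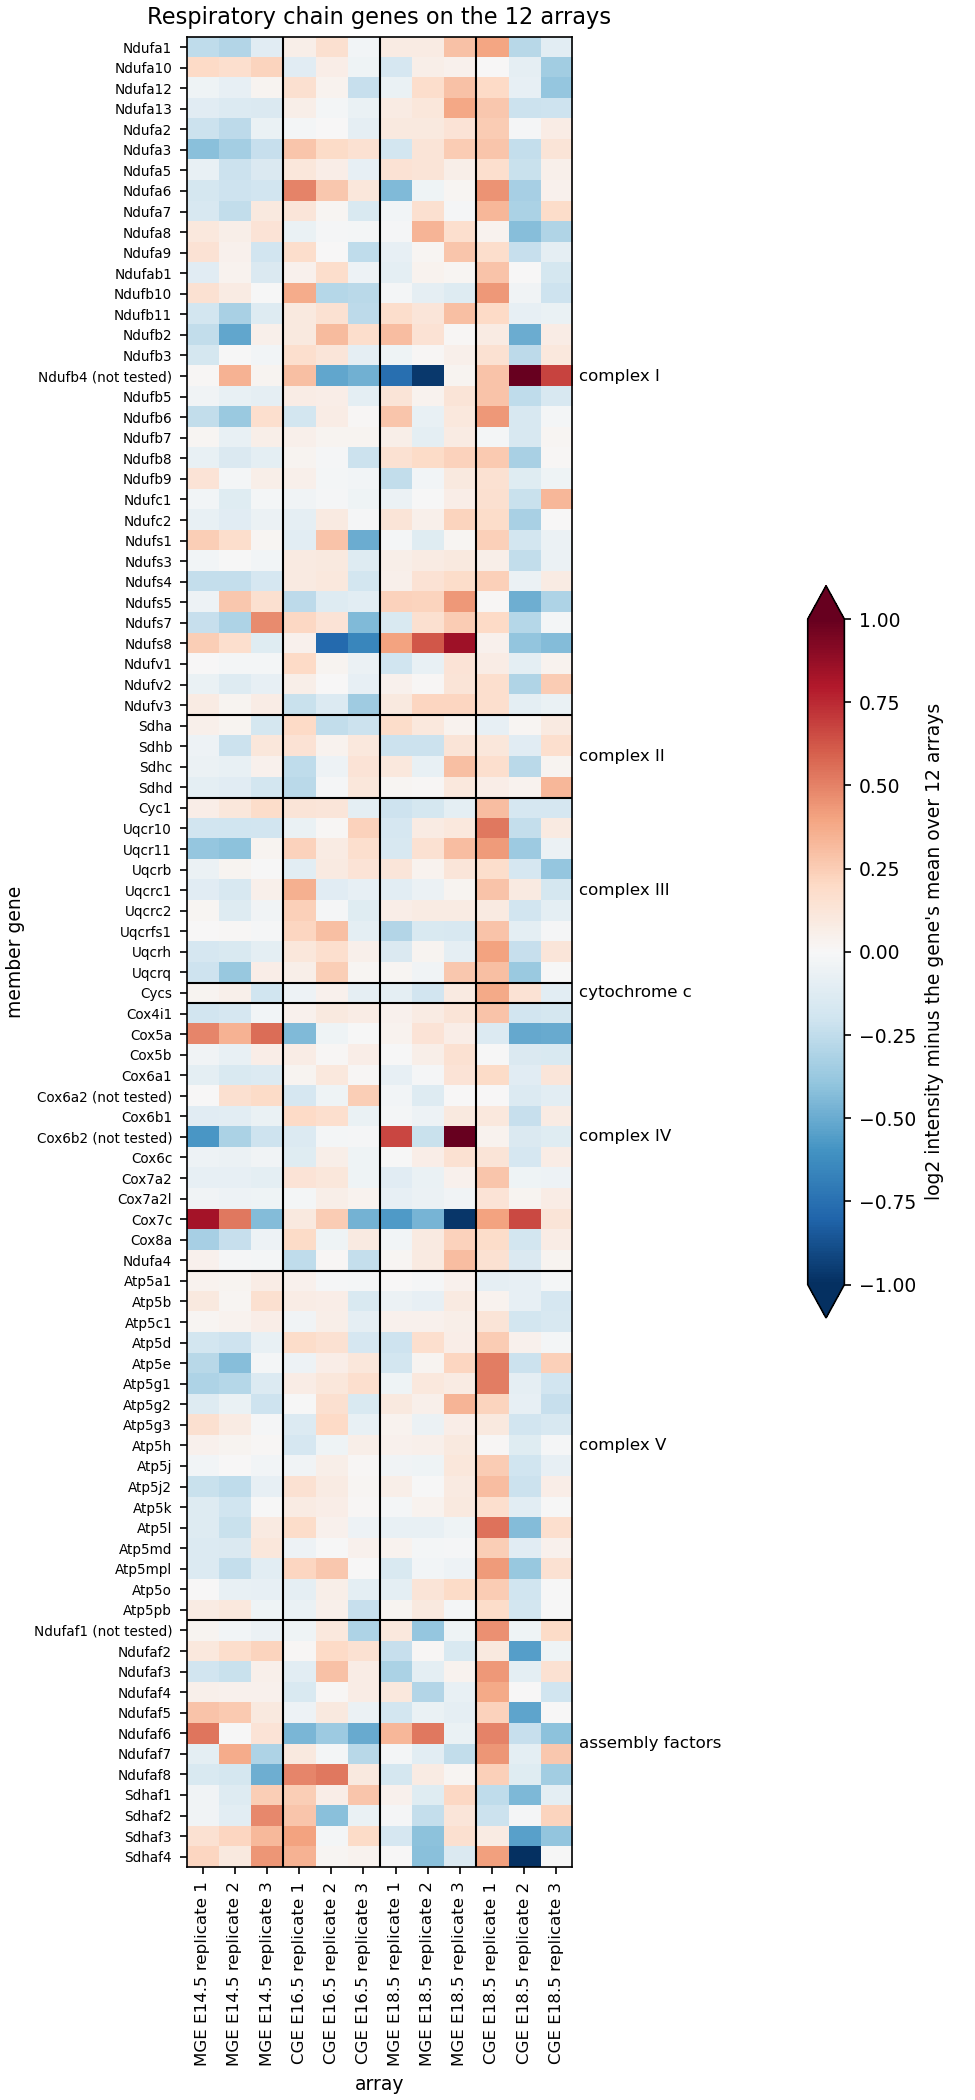
Each row is 1 of the 89 members, ordered by complex, and each column 1 of the 12 arrays by group. Colour gives the log2 intensity minus the gene's own mean over 12 arrays, with values past 1 shown as 1. Most rows are near 0 throughout, and the column of CGE E18.5 replicate 1 is above 0 in most rows.

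In the early lineage comparison Cox5a was called higher in MGE cells, and Ndufa3 and Ndufaf8 were called lower, out of 85 tested members. Of all genes tested 4.15% were called higher and 5.90% lower. The median member difference was -0.07, against -0.02 for all genes, and 30 members had a positive value. Without an adjustment 9 of the 85 members had a p under 0.05, against 1990 of the 8792 genes tested. The 3 arrays of the first group lay all above those of the second in 7 members (8.24%, against 14.2% of all genes tested) and all below them in 18 (21.2%, against 18.9%).

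At E18.5, Ndufs8, Ndufs5 and Cox5a were called higher in MGE cells and Cox7c was called lower. The share of all genes called was 13.0% higher and 9.86% lower. The median member difference was 0.04 against -0.02 for all genes, with 53 positive values. An unadjusted p under 0.05 was found in 5 members, against 3120 of the 8792 genes tested. The groups lay apart in 6 members upwards (7.06%, against 18.3% of all genes) and in 3 downwards (3.53%, against 1628 of the 8792 genes). Without CGE E18.5 replicate 1 the median was 0.13 (all genes 0.01). In that setting 6 members were called higher (Cox5a, Ndufa13, Ndufa8, Ndufs5, Ndufs8 and Uqcrb) and 0 lower, against 14.1% and 9.27% of all genes. Without replicate 2 of that group the median was -0.06 (all genes -0.04). There 1 member was called higher (Ndufs8) and 0 lower, against 10.8% and 8.3% of all genes.

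With age, MGE cells had 1 called member, Cox7c, which was lower at E18.5, and CGE cells had 0. In MGE cells 11.4% of all genes were called higher and 9.77% lower, and in CGE cells 4.52% and 6.39%. The median member difference was 0.09 in MGE cells (all genes -0.06), where 61 of 85 values were positive (3729 of the 8792 genes tested). There 11 members had an unadjusted p under 0.05, against 2975 of all genes tested. In CGE cells the median was -0.03 (all genes -0.07), with 35 positive values (3530 of all genes tested) and 4 such p-values (2333). Of 40 listed cytosolic ribosomal genes, 38 were positive in MGE maturation (median 0.13) and 23 in CGE maturation (0.02). The E18.5 arrays of MGE cells lay all above the E14.5 arrays in 27 members (31.8%, against 20.7% of all genes) and all below in 10 (11.8%, against 27%). In CGE cells the same held for 1 member upwards (1.18%, against 9.25%) and 4 downwards (4.71%, against 16.3%).

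The change of the lineage difference gave 0 called members by limma, and by other settings of the fit it gave up to 3. At an unadjusted p under 0.05 it gave 5 members, against 1955 of the 8792 genes tested. Of all genes 6.72% were called higher and 1.87% lower. The median was 0.10 against 0.02 for all genes, with 58 positive values. Of the 40 listed cytosolic ribosomal genes 35 had a positive value (median 0.10). The lineage comparisons and the maturation comparisons share their arrays, so that the medians of 1 comparison are not independent of those of another.

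Without CGE E18.5 replicate 1, MGE maturation gave 6 members called higher (Atp5g1, Ndufa1, Ndufa13, Ndufa2, Ndufb11 and Ndufs4), while 12.1% of all genes were. That comparison holds no CGE array, so the differences were the same and only the pooled spread was smaller. In the same setting CGE maturation gave 2 called lower (Ndufaf8 and Sdhaf3) at a median of -0.12, against 8.7% of all genes and a median of -0.10. The change of the lineage difference gave 3 called higher (Atp5g1, Ndufa1 and Ndufaf8) at a median of 0.21, against 7.8% and a median of 0.05. Without replicate 2 of that group the medians were 0.07 for CGE maturation and 0.00 (-0.003) for the change of the lineage difference.

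The intervals of the members were narrow enough to bound most differences. The 95% interval lay within 1 on either side of 0 for 81 of the 85 tested members in the early lineage comparison (95.3%, against 84.2% of all genes tested), for 83 in the late one (97.6%, against 77.4%), for 82 in MGE maturation (96.5%, against 79.9%) and for 84 in CGE maturation (98.8%, against 83.6%). Within 0.5 lay 54, 59, 50 and 66 of them. For the change of the lineage difference, whose standard errors are larger, 78 members lay within 1 and 27 within 0.5.

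**Figure D3:**
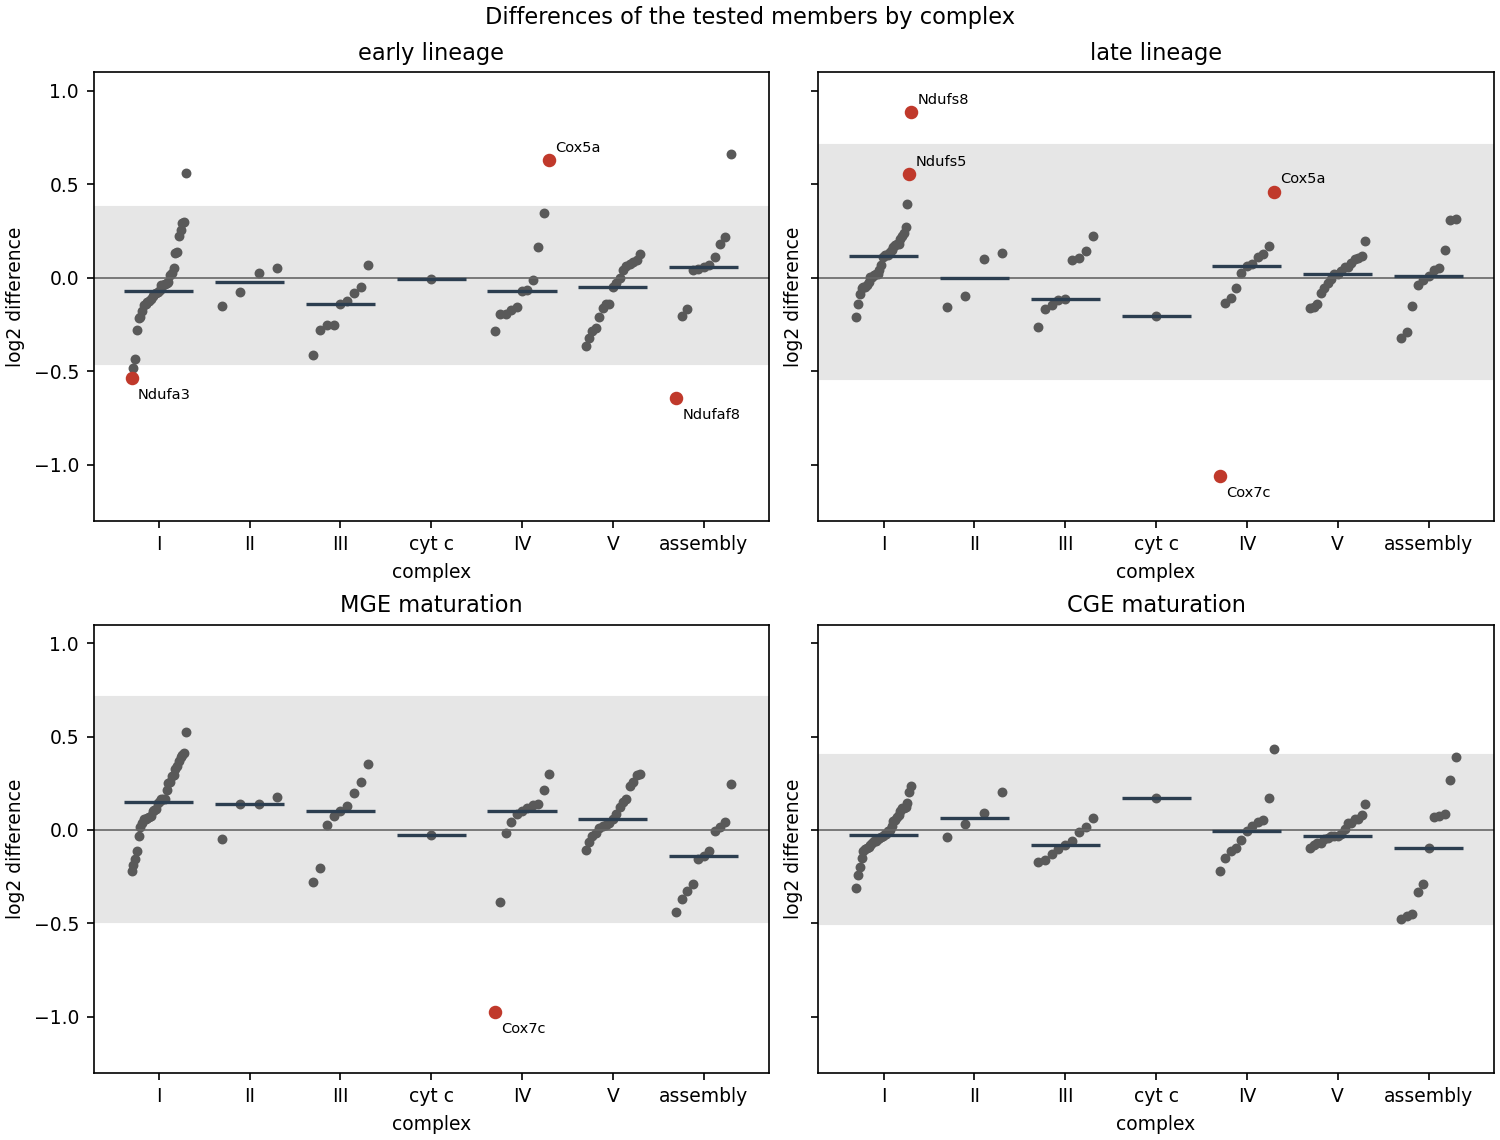
Log2 difference (y axis) of each of the 85 tested members by complex (x axis) in 4 comparisons. Each point is 1 gene, red with its name where it was called, horizontal bars are the medians by complex, and the grey band holds the differences of all genes tested from the 10th to the 90th percentile. Most members lie inside the band, and the called ones are Cox5a, Ndufa3 and Ndufaf8 in the early, Ndufs8, Ndufs5, Cox5a and Cox7c in the late lineage comparison and Cox7c in MGE maturation.

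Complex I, the NADH dehydrogenase and entry point of most electrons, held 3 of the 6 members called anywhere. Ndufs8, an iron-sulfur subunit of the arm that hands electrons to ubiquinone, measured 10.15, 10.36 and 10.59 in the MGE E18.5 arrays and 9.79, 9.34 and 9.31 in the CGE E18.5 arrays. In MGE cells at E14.5 it measured 9.99, 9.91 and 9.62, and in CGE cells at E16.5 9.78, 8.96 and 9.09. The E18.5 groups did not overlap, while the earlier groups did through CGE E16.5 replicate 1. The late lineage difference of Ndufs8 was 0.89 ± 0.22 (95% interval 0.41 to 1.37, 1.85-fold, adjusted p = 0.0123), and the early one was 0.56 ± 0.22 (adjusted p = 0.145). Of its 6 probe sets 5 were called in the late comparison, at 0.89, 0.91, 0.84, 0.64 and 0.80, and the last gave 0.04. Without MGE E18.5 replicate 3 the late difference of Ndufs8 was 0.78 at an adjusted p of 0.0535, and without CGE E16.5 replicate 1 the early one was 0.81 at 0.0235. The latter setting also gave Ndufs8 a call in MGE maturation (0.53, adjusted p = 0.0472, against 0.114 with it).

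Ndufs5, an accessory subunit, measured 9.88, 9.87 and 10.08 in MGE cells and 9.66, 9.16 and 9.34 in CGE cells at E18.5. At the earlier days it measured 9.59, 9.91 and 9.81 in MGE cells and 9.38, 9.51 and 9.54 in CGE cells. MGE arrays lay above CGE arrays at both stages. The late difference of Ndufs5 was 0.56 ± 0.14 (0.24 to 0.87, 1.47-fold, adjusted p = 0.0148), the early one was 0.29 (adjusted p = 0.251), and the gene has 1 probe set. The late call was lost without MGE E18.5 replicate 3 (adjusted p = 0.0623) or CGE E18.5 replicate 2 (0.44 at 0.0549).

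Ndufa3, an accessory subunit, was low in the youngest cells. It measured 11.15, 11.24 and 11.34 in MGE cells at E14.5 and 11.85, 11.76 and 11.73 in CGE cells at E16.5. At E18.5 it measured 11.39, 11.70 and 11.83 in MGE cells and 11.85, 11.34 and 11.71 in CGE cells. The MGE E14.5 arrays lay below those of both CGE E16.5 and MGE E18.5, and the E18.5 groups overlapped. The early difference of Ndufa3 was -0.54 ± 0.15 (-0.87 to -0.21, 1.45-fold lower, adjusted p = 0.0438) and the late one 0.01, but the change between them, 0.55, did not pass (adjusted p = 0.15). A second probe set gave -0.57 (adjusted p = 0.0354). Ndufa3 was near the threshold, and its early call was lost in 11 of 22 other settings, among them leaving out any 1 of the 3 MGE E14.5 or the 3 CGE E16.5 arrays, MGE E18.5 replicate 2 or CGE E18.5 replicate 3 (adjusted p up to 0.175). In MGE maturation Ndufa3 gave 0.40 (adjusted p = 0.0851) and was called without MGE E18.5 replicate 1 or CGE E18.5 replicate 2 (down to 0.0439).

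**Figure D4:**
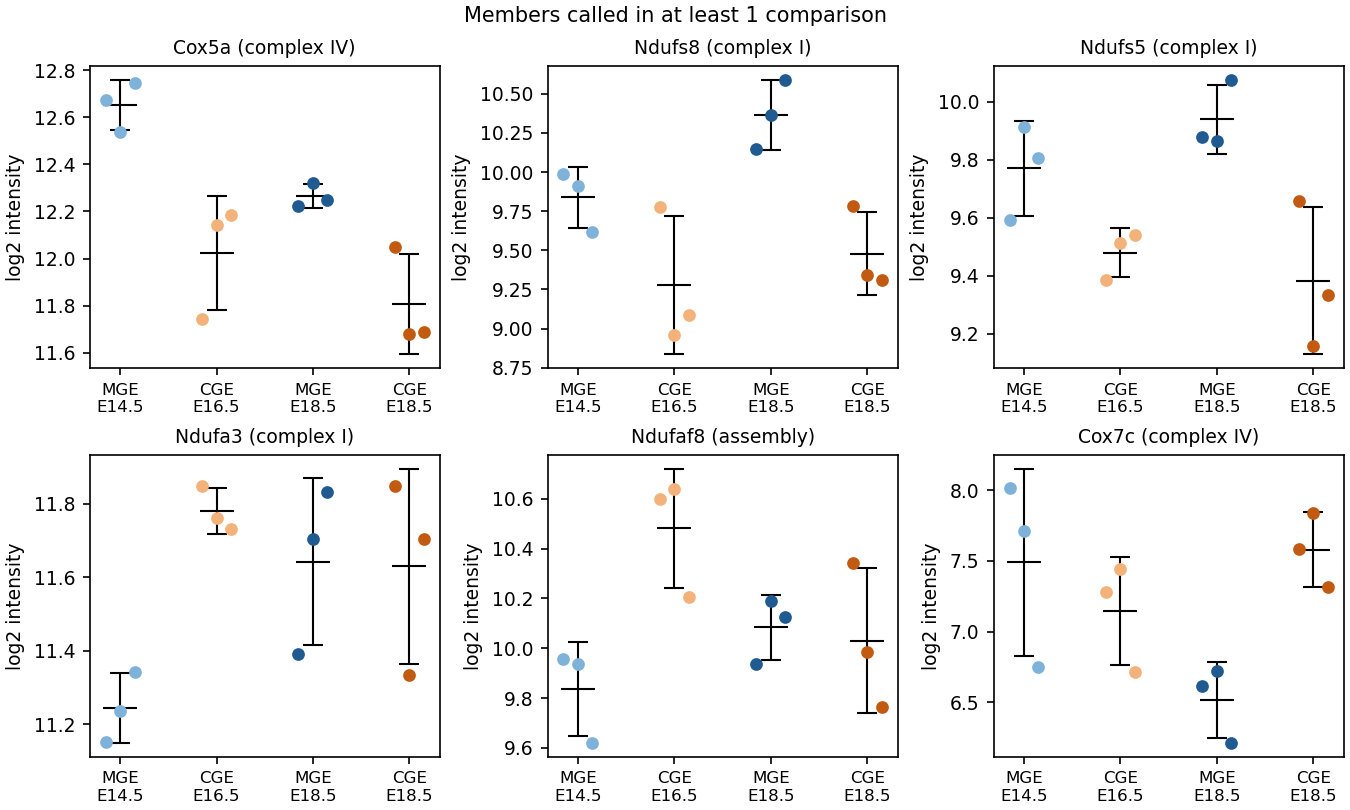
Log2 intensity (y axis) on each array of the 6 members called in at least 1 comparison, as points by group with the group mean and SD over 3 arrays. Ndufs8, Ndufs5 and Cox5a lie above their CGE counterparts in MGE cells at E18.5, Ndufa3 and Ndufaf8 have their lowest mean in MGE cells at E14.5, and Cox7c has its lowest in MGE cells at E18.5.

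Its other tested subunits were not called in any comparison. Of all 32 tested, 27 had a positive value in MGE maturation (median 0.15), 12 in CGE maturation (median -0.03), 10 in the early lineage comparison (median -0.07) and 24 in the late one (median 0.12). Over the 8792 genes tested 3729, 3530, 4100 and 4209 were positive in the same order. Among the 40 listed cytosolic ribosomal genes these counts were 38, 23, 4 and 18, with medians of 0.13, 0.02, -0.14 and -0.02. In MGE maturation 8 of the 32 complex I subunits had an unadjusted p under 0.05, against 2975 of the 8792 genes tested. All 8 subunits were higher at E18.5. Nearest to the threshold was Ndufb11, a membrane arm subunit, with 12.33, 12.19 and 12.39 at E14.5 and 12.69, 12.63 and 12.82 at E18.5, and so without overlap. Its difference was 0.41 ± 0.14 (0.12 to 0.71, adjusted p = 0.0501), and it was called without CGE E16.5 replicate 3 or CGE E18.5 replicate 1 (down to 0.0295).

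Ndufs4, an accessory subunit whose loss causes an encephalopathy in mice, followed in MGE maturation with 0.34 ± 0.12 (adjusted p = 0.0576) and again no overlap, and was called without CGE E16.5 replicate 3 or CGE E18.5 replicate 1 or 2 (down to 0.0423). Ndufa2 gave 0.29 ± 0.11 (adjusted p = 0.0741). The values of Ndufa1, Ndufa13 and Ndufa5 were 0.37, 0.33 and 0.26, and without CGE E18.5 replicate 1 Ndufa1 (0.033), Ndufa13 (0.0453) and Ndufa2 (0.0463) had an adjusted p under the threshold. In the late lineage comparison Ndufa8 gave 0.40 ± 0.13 with overlapping groups (adjusted p = 0.0525), and was called without MGE E18.5 replicate 1 or CGE E18.5 replicate 1 (0.49 to 0.53, down to 0.00896).

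Catalytic core subunits of complex I had no calls. Ndufv1, which binds NADH and FMN, had group means of 11.22, 11.29, 11.19 and 11.24 (MGE E14.5, CGE E16.5, MGE E18.5, CGE E18.5), and its interval in the late lineage comparison ran from -0.31 to 0.20. Ndufs1, the largest iron-sulfur subunit, had group means of 9.38, 9.13, 9.19 and 9.23 in the same order. Ndufb7 had group means of 13.41, 13.45, 13.43 and 13.36. Ndufb4 stood at the floor of the array, with group means between 3.92 and 5.16, so that its order of groups was not read.

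Complex II, succinate dehydrogenase, had 0 of 4 subunits called. Sdha, the flavoprotein that oxidises succinate, had group means of 11.03, 10.98, 11.17 and 11.07 in the same order, and Sdhb, the iron-sulfur subunit, 10.34, 10.49, 10.29 and 10.45. All 4 subunits had 95% intervals within 0.5 of 0 in the lineage and maturation comparisons. Sdhc, a membrane anchor, had means between 11.40 and 11.57.

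Complex III, the cytochrome bc1 complex, had 0 of 9 called. In the early lineage comparison 8 of its 9 values were negative with a median of -0.14, and 0 of the 9 had an unadjusted p under 0.05. Uqcrfs1, the Rieske iron-sulfur protein, measured 9.13, 9.28 and 9.27 in MGE cells and 9.71, 9.33 and 9.42 in CGE cells at E18.5. These groups lay apart, but the difference of -0.26 ± 0.13 (-0.56 to 0.03) did not pass (adjusted p = 0.184). Cyc1, the cytochrome c1 subunit, had group means of 10.34, 10.27, 10.06 and 10.21, and Uqcrc1, a core protein, 9.49, 9.62, 9.52 and 9.63. Uqcrh, the hinge protein, had group means of 12.15, 12.40, 12.22 and 12.39. Uqcrb, called higher in the late comparison without CGE E18.5 replicate 1, gave 0.22 ± 0.14 with it (adjusted p = 0.278) and 0.37 without (0.0403).

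Cycs, cytochrome c itself, carries electrons from complex III to complex IV and triggers caspase activation when it leaves mitochondria. Its group means were 11.22, 11.23, 11.20 and 11.40, and its late lineage difference was -0.21 ± 0.14 (-0.51 to 0.10). The higher mean of CGE cells at E18.5 came with 11.65 in replicate 1 against 11.41 and 11.16 in the others, and the groups overlapped.

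Complex IV, cytochrome c oxidase, held Cox5a and Cox7c among its 11 tested subunits. Cox5a, an early-assembling subunit, was the only member called in both lineage comparisons. It measured 12.68, 12.54 and 12.75 in MGE cells at E14.5 against 11.74, 12.14 and 12.19 in CGE cells at E16.5, and 12.22, 12.32 and 12.25 against 12.05, 11.68 and 11.69 at E18.5. MGE arrays lay above CGE arrays at both stages, and within each lineage the mean was lower at E18.5. The early difference of Cox5a was 0.63 ± 0.15 (0.31 to 0.95, 1.55-fold, adjusted p = 0.0164) and the late one 0.46 ± 0.15 (0.14 to 0.78, 1.38-fold, adjusted p = 0.0392).

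Cox5a gave -0.39 ± 0.15 in MGE maturation, where the groups lay apart (adjusted p = 0.0813, and 0.0477 without CGE E16.5 replicate 1), and -0.22 in CGE maturation (0.364). Its 2 other probe sets had early differences of 0.39 and 0.36 and late ones of 0.48 and 0.44, and 0 of these 4 values passed (adjusted p from 0.0597 to 0.21). The early call was lost with the mean of its probe sets (0.46, adjusted p = 0.0826) and without MGE E14.5 replicate 1 (0.0649), MGE E14.5 replicate 3 (0.063) or CGE E16.5 replicate 1 (0.0588). The late call was lost in 11 of 22 other settings, with an adjusted p up to 0.217, among them leaving out MGE E14.5 replicate 1 or 2, any 1 MGE E18.5 array, or CGE E18.5 replicate 2 or 3.

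Cox7c, a small membrane subunit, was read near the filter level by a probe set whose name marks it as one that may read several transcripts. It measured 6.62, 6.72 and 6.21 in MGE cells at E18.5 against 7.59, 7.84 and 7.31 in CGE cells at E18.5. In MGE cells at E14.5 it measured 8.01, 7.71 and 6.75, and in CGE cells at E16.5 7.28, 7.44 and 6.71. The E18.5 groups lay apart, and so did both stages of the MGE cells. The late difference of Cox7c was -1.06 ± 0.30 (adjusted p = 0.0245) and its MGE maturation difference -0.98 ± 0.30 (adjusted p = 0.0396). All 3 MGE E18.5 arrays lay below the filter level of 7.10 to 7.17, where a dim transcript and none cannot be told apart, so no fold is given for this gene.

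The change of the lineage difference of Cox7c, -1.41 ± 0.43, did not pass (adjusted p = 0.0648), but it did without MGE E14.5 replicate 3 (-1.78, adjusted p = 0.00691). Its late call was lost without MGE E18.5 replicate 1 or 3 or CGE E18.5 replicate 1 or 2 (adjusted p up to 0.0926). Its MGE maturation call was lost without MGE E14.5 replicate 1 (-0.71, adjusted p = 0.158) or replicate 2, without any 1 MGE E18.5 array, and without CGE E18.5 replicate 1. The other probe set of Cox7c, at a mean of 5.37, did not pass the filter.

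Where subunits of complex IV exist as tissue isoforms, the form of most tissues passed the filter and was not called. Cox4i1 had group means of 12.09, 12.28, 12.30 and 12.19, Cox6a1 12.50, 12.67, 12.64 and 12.69, Cox6b1 12.92, 13.11, 13.02 and 13.00, and Cox7a2 12.93, 13.08, 12.97 and 13.08. Cox6a2, the heart and muscle form, and Cox6b2, the testis form, did not pass the filter, with group means of 6.64 to 6.84 and 5.38 to 6.24. Cox8a, the form outside heart and muscle, gave 0.30 ± 0.13 in MGE maturation (0.01 to 0.59, adjusted p = 0.131). Cox5b, which binds zinc, had group means of 13.21, 13.28, 13.30 and 13.13. Ndufa4, once placed in complex I, had 12.12, 11.96, 12.25 and 12.13.

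Complex V, the ATP synthase, had 0 of 17 subunits called and no difference below -0.36 or above 0.30 in the lineage and maturation comparisons. Atp5a1, the alpha subunit of the catalytic head, had group means of 13.43, 13.39, 13.40 and 13.32, and its 12 arrays lay between 13.30 and 13.46. Its late lineage interval ran from -0.12 to 0.27. Atp5b, the beta subunit that forms ATP, had group means of 12.74, 12.64, 12.63 and 12.57. Atp5g1, which encodes the c ring protein, measured 10.08, 10.11 and 10.25 in MGE cells at E14.5 and 10.47, 10.51 and 10.56 in CGE cells at E16.5, without overlap. Its early difference was -0.36 ± 0.16 (-0.72 to -0.01, adjusted p = 0.204, and 0.0331 without CGE E18.5 replicate 1, through the smaller spread alone).

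Of the 11 tested assembly factors, 8 had a negative value in MGE maturation (median -0.14), with 0 called. Ndufaf8, which acts in complex I assembly, measured 9.96, 9.94 and 9.62 in MGE cells at E14.5 and 10.60, 10.64 and 10.21 in CGE cells at E16.5. At E18.5 it measured 9.94, 10.19 and 10.13 in MGE cells and 10.34, 9.98 and 9.76 in CGE cells. The earlier groups lay apart and the E18.5 groups overlapped. The early difference of Ndufaf8 was -0.64 ± 0.17 (-1.02 to -0.27, 1.56-fold lower, adjusted p = 0.0357), the late one was 0.05, and the change between them, 0.70, did not pass (adjusted p = 0.108).

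Ndufaf8 has 1 probe set, and its early call was lost without any 1 MGE E14.5 array or without CGE E16.5 replicate 1 or 2 (adjusted p up to 0.13). Without CGE E18.5 replicate 1 it was called in CGE maturation (-0.61, adjusted p = 0.0387) and for the change of the lineage difference (0.85, adjusted p = 0.0375). Sdhaf1, an assembly factor of complex II, gave -0.46 ± 0.14 in CGE maturation (-0.77 to -0.15, adjusted p = 0.0578), with 9.82, 9.64 and 9.85 at E16.5 and 9.32, 9.13 and 9.48 at E18.5. Its groups lay apart, and it was called without CGE E18.5 replicate 3 (-0.55, adjusted p = 0.0444). Sdhaf3, of the same complex, gave -0.48 there with overlap (adjusted p = 0.13) and -0.66 without CGE E18.5 replicate 1 (0.0336). Ndufaf6 had the highest early difference of all members, 0.66 ± 0.23 (adjusted p = 0.105, and 0.0332 without CGE E18.5 replicate 1), at a mean of 7.04 near the filter level, and Ndufaf2 had group means of 10.88, 10.83, 10.59 and 10.54.

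Subunits encoded in mitochondrial DNA are made by a separate polymerase and ribosome, and ND5 of complex I was the only such gene in the table. Its group means were 13.25, 13.29, 13.28 and 13.09, and it was not called in any comparison (late difference 0.19 ± 0.10, adjusted p = 0.208).

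The genes around the chain were read from lists of known factors. Of 29 tested further assembly factors 1 was called, in the late lineage comparison, where Lrpprc, which stabilises mitochondrial mRNA, gave -0.49 ± 0.14 (adjusted p = 0.0223), a call lost without MGE E18.5 replicate 1 (-0.44) or CGE E18.5 replicate 1 (-0.45), with an adjusted p up to 0.0811. Without CGE E16.5 replicate 3 Lrpprc was also called in the early comparison (-0.53, adjusted p = 0.0298). Of 73 mitochondrial ribosomal protein genes, Mrpl55 was called lower in the early comparison (-0.53, adjusted p = 0.0351), and 3 were called lower in the late one, with Mrps15 at -0.60 (adjusted p = 0.0286). The medians of these 73 were -0.11 and -0.11, with 59 and 54 negative values. The early call of Mrpl55 was lost without any 1 MGE E14.5 array, CGE E16.5 replicate 1 or 3 or MGE E18.5 replicate 1 or 2 (adjusted p up to 0.139), and the late call of Mrps15 without any 1 MGE E18.5 array or CGE E18.5 replicate 3 (up to 0.0901). Of 22 genes for protein import, Timm17a was called higher (0.50, adjusted p = 0.0333) and Timm29 lower (-0.34, adjusted p = 0.0424) in MGE maturation, with 0 calls in the other comparisons. Both calls were lost without MGE E14.5 replicate 1 or 2 or any 1 MGE E18.5 array, and that of Timm29 also without CGE E16.5 replicate 2 or 3 (adjusted p up to 0.148).

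Regulators of mitochondrial biogenesis set how much of the chain and of mitochondrial DNA a cell makes. Of 19 tested, 1 was called higher and 3 lower in the late lineage comparison, 2 higher and 1 lower in MGE maturation, 1 higher in CGE maturation, and 0 in the early comparison. Polg, the polymerase of mitochondrial DNA, measured 9.10, 9.21 and 9.75 in MGE cells at E18.5, 8.07, 8.57 and 8.33 in CGE cells at E18.5, and 8.01, 8.02 and 8.02 in MGE cells at E14.5. In CGE cells at E16.5 it measured 8.54, 8.09 and 7.69. MGE cells at E18.5 lay above all other arrays, with a late difference of 1.03 ± 0.22 (adjusted p = 0.00557) and an MGE maturation difference of 1.34 ± 0.22 (adjusted p = 0.00131). The 2 other probe sets of Polg, read near the filter level, were not called and gave 0.71 and -0.24 in the late comparison. The mean of all 3 gave 0.50 there (adjusted p = 0.0982) and 0.69 in MGE maturation (adjusted p = 0.0316).

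Esrra, an orphan nuclear receptor that drives respiratory genes, was read near the filter level. It measured 6.29, 5.99 and 6.33 in MGE cells and 6.99, 7.90 and 7.28 in CGE cells at E18.5, and 6.93, 7.41 and 7.09 in MGE cells at E14.5. In CGE cells at E16.5 it measured 6.78, 6.85 and 6.67, all below the filter level. The older MGE cells lay below the rest and also below that level, so that the size of the difference is not a fold of transcript. Only MGE E14.5 replicate 2 and CGE E18.5 replicates 2 and 3 lay above the filter level. The late difference of Esrra was -1.19 ± 0.21 (adjusted p = 0.0016), and its other probe set (mean 6.28) did not pass the filter. Without CGE E18.5 replicate 1 Esrra was also called higher in CGE maturation (0.82, adjusted p = 0.0249). Tfb1m, which methylates mitochondrial ribosomal RNA, was also read near it and measured 8.28, 8.50 and 8.09 in CGE cells at E18.5 against 6.64, 7.35 and 6.99 in MGE cells, a difference of -1.30 ± 0.27 (adjusted p = 0.00471).

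Tfb1m was called higher in CGE maturation by 1.15 ± 0.27 (adjusted p = 0.0212), a call that was lost without CGE E16.5 replicate 2 or 3 or CGE E18.5 replicate 2 (0.96 to 1.05, adjusted p up to 0.0835). In CGE cells at E16.5 Tfb1m measured 7.84, 6.75 and 6.83, the last 2 below the filter level, so the size of this difference is not a fold of transcript. Its probe set is named as one that may read several transcripts, and its other probe set (mean 6.48) did not pass the filter. Without CGE E16.5 replicate 1 Tfb1m was also called for the change of the lineage difference (-1.15, adjusted p = 0.0291). Gabpa, the DNA-binding subunit of GABP, rose in MGE maturation by 0.47 ± 0.15 (adjusted p = 0.0431), with 10.01, 10.07 and 9.92 at E14.5 and 10.53, 10.31 and 10.57 at E18.5. Its second probe set gave 0.60 (adjusted p = 0.0103). The call of Gabpa was lost without any 1 MGE E14.5 array, MGE E18.5 replicate 1 or 3 or CGE E16.5 replicate 2 (adjusted p up to 0.138). Whether members with a GABP core in their window followed it was not tested.

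**Figure D5:**
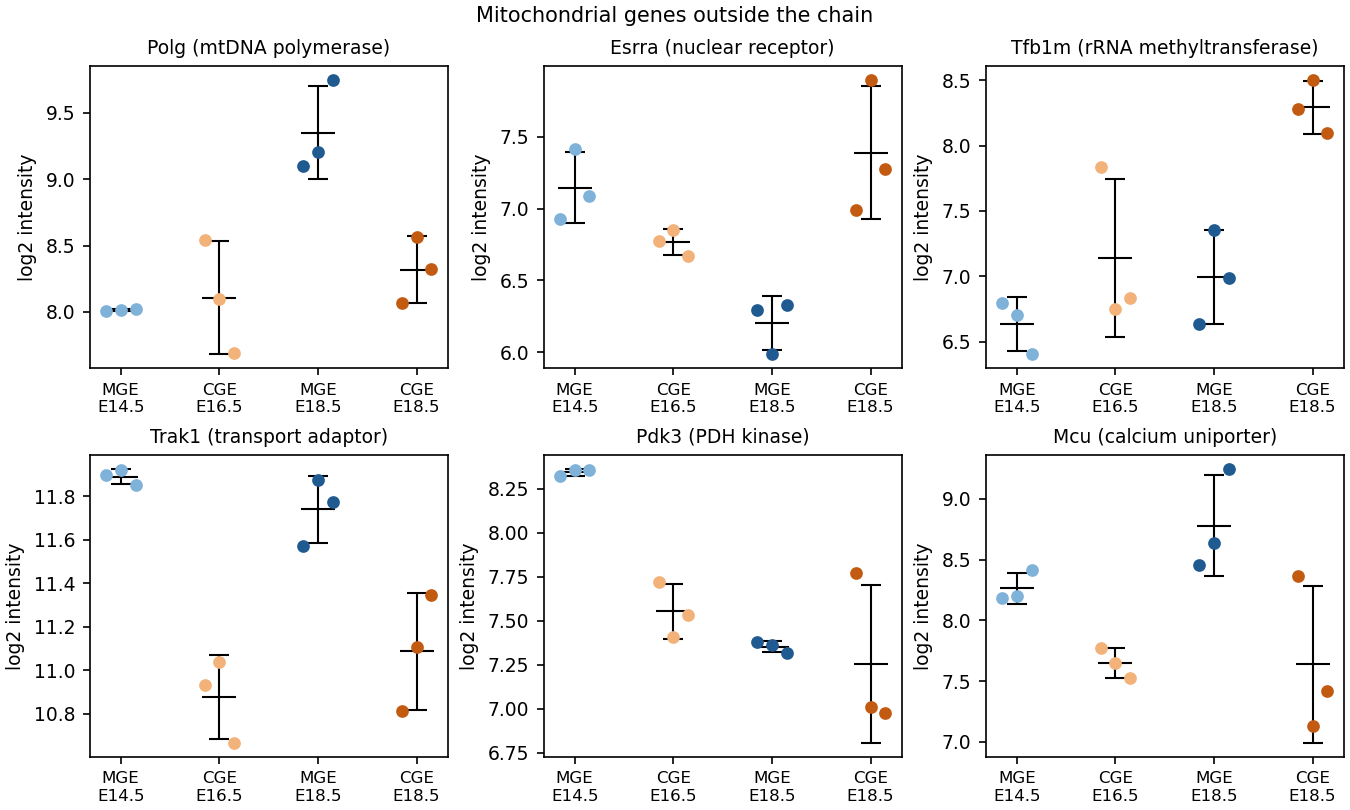
Log2 intensity (y axis) on each array of genes around the chain, as points by group with the group mean and SD over 3 arrays. Polg lies highest and Esrra lowest in MGE cells at E18.5, Tfb1m lies highest in CGE cells at E18.5, and Trak1 lies above CGE cells in MGE cells at both stages.

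Fuel supply and carriers gave a few calls. Of 23 genes of pyruvate dehydrogenase and the TCA cycle, Pdk3, a kinase that shuts off pyruvate dehydrogenase, was higher in MGE cells in the early comparison (0.79 ± 0.18, adjusted p = 0.0169) and lower in MGE cells at E18.5 than at E14.5 (-0.99 ± 0.18, adjusted p = 0.00265). Fh1, fumarase, was higher in the early comparison (0.60, adjusted p = 0.0377), and Idh2, the mitochondrial NADP isocitrate dehydrogenase, fell in MGE maturation (-0.54, adjusted p = 0.0121). The second probe set of Idh2 gave -0.22 there and was not called (adjusted p = 0.259). In the late comparison that second probe set was called lower (-0.52, adjusted p = 0.0125), and the first gave -0.31 (0.11). The early call of Pdk3 was lost without any 1 MGE E14.5 array or CGE E16.5 replicate 2 (adjusted p up to 0.0659), and that of Fh1 without MGE E14.5 replicate 1 or 2 or any 1 CGE E16.5 array (up to 0.15). Without CGE E18.5 replicate 1, Pdk3 was also called in the late comparison (0.36) and in CGE maturation (-0.56), and Fh1 in the late comparison (0.62).

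Carriers and channels of the inner membrane move ADP, ATP, calcium and protons. Of 12 carriers and channels 2 were called higher in the late comparison. Mcu, the pore of the calcium uniporter, measured 8.45, 8.64 and 9.25 in MGE cells and 8.36, 7.13 and 7.42 in CGE cells at E18.5, a difference of 1.14 ± 0.28 (adjusted p = 0.0122) that missed the threshold without MGE E18.5 replicate 3 (0.91, adjusted p = 0.0539). Slc25a5, an exchanger of ADP and ATP, was higher by 0.39 (adjusted p = 0.0408), a call lost when any 1 MGE E14.5 or CGE E18.5 array or MGE E18.5 replicate 1 or 3 was left out (adjusted p up to 0.158).

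Slc25a5 also rose in MGE maturation (0.43, adjusted p = 0.032), while Slc25a27, an uncoupling protein of neurons, fell there by 0.96 on the log2 scale (adjusted p = 0.0154). Both calls were lost without MGE E14.5 replicate 1 or 2, and that of Slc25a5 also without MGE E14.5 replicate 3 or MGE E18.5 replicate 1 or 3. Slc25a27 was also called in the late comparison, at the same -0.68, without MGE E14.5 replicate 2 or 3 or CGE E16.5 replicate 2, and Slc25a5 in CGE maturation without CGE E16.5 replicate 2 or MGE E18.5 replicate 3 (0.42 to 0.51). Micu3, a neuronal regulator of the uniporter, fell in CGE maturation by 0.76 (adjusted p = 0.033), a call lost without MGE E14.5 replicate 1, CGE E16.5 replicate 2 or 3 or CGE E18.5 replicate 2 or 3 (adjusted p up to 0.0932).

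Mitochondria change shape by fusion and fission and travel along microtubules. Of 17 genes of mitochondrial fusion, fission and transport, Trak1, an adaptor between mitochondria and kinesin, measured 11.90, 11.92 and 11.85 in MGE cells at E14.5 against 10.93, 11.04 and 10.66 in CGE cells at E16.5, without overlap. Its differences were 1.01 ± 0.15 early (adjusted p = 0.000981) and 0.65 ± 0.15 late (adjusted p = 0.0086). The 3 other probe sets of Trak1 were not called, and the mean of all 4 gave 0.45 in the early (adjusted p = 0.109) and 0.19 in the late comparison (adjusted p = 0.427), so that both calls rest on the first probe set. Opa1, which fuses inner membranes, was higher in MGE cells at E18.5 by 0.42 ± 0.12 (adjusted p = 0.0242), a call lost with the mean of its probe sets (0.30, adjusted p = 0.0511) and without MGE E18.5 replicate 1 or 2 or CGE E18.5 replicate 1 or 2 (adjusted p up to 0.0919).

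The cells in the gates were not the same mixture. The 7 oligodendrocyte precursor markers had an array mean of 10.89 to 11.65 in MGE cells at E18.5, against 6.66 to 6.98 in MGE cells at E14.5 and 4.94 to 5.57 in CGE cells, and 7 of 7 were called higher in MGE cells in the late lineage comparison and in MGE maturation. The 5 radial glia and astrocyte markers in the table had array means of 9.51 to 9.89 in MGE cells at E18.5, against 7.15 to 8.39 elsewhere. GABAergic neuron markers were at 11.22 to 11.55 there, and at 11.89 to 12.17 elsewhere. MGE lineage markers lay between 11.31 and 12.37 in MGE cells and between 9.45 and 10.67 in CGE cells, and CGE lineage markers at 6.63 to 7.63 and 11.48 to 12.24. In the early comparison 6 of the 7 oligodendrocyte precursor markers were called higher in MGE cells too, with array means of 6.66 to 6.98 against 4.94 to 5.29. These means lay below the filter level of 7.10 to 7.17. Sox10, Nkx2-2 and Olig2 lay below it on all arrays of both groups and entered the tests through the MGE E18.5 arrays alone. A dim transcript and none cannot be told apart there, so the sizes of these early differences are not folds of transcript.

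Markers of other cell types also moved with age in both lineages. In CGE maturation Sox9, Slc1a3 and Fabp7 of the radial glia and astrocyte list were called higher (1.28, 0.98 and 0.74). Of the 7 oligodendrocyte precursor markers only Olig1 was called there (1.03), and their median was 0.10 with 2 negative values. On the CGE arrays Olig1 lay between 4.41 and 6.11, below the filter level of 7.10 to 7.17. The 2 tested pallial glutamatergic markers, Neurod6 and Neurod2, gave -1.41 to -1.28 in CGE maturation and -1.36 to -0.07 in MGE maturation, with 0 called. The microglia markers in the table, Csf1r and C1qb, were called higher in MGE maturation (2.63 and 2.18) and in CGE maturation (2.36 and 0.98), and the mean of both lay between 4.29 and 6.19 on the earlier arrays and between 6.70 and 7.91 at E18.5. Of the vascular list, Rgs5 was called higher in MGE maturation (2.59), while Flt1 lay between 4.31 and 4.88 on the 12 arrays, and the astrocyte marker Aqp4 between 3.52 and 3.90. Marker differences thus accompany all comparisons above, and their part in the members' results was not tested. In such bulk samples fewer cells of a type and less RNA per cell cannot be told apart.

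Of the 2 measures of RNA quality on the arrays, 1 differed between the earlier groups. The 3′ minus 5′ signal of the Gapdh control probe sets was 1.42 to 1.58 in MGE cells at E14.5 and 1.62 to 1.64 in CGE cells at E16.5, without overlap, and 1.37 to 1.56 and 1.50 to 1.69 in MGE and CGE cells at E18.5. That of the actin controls overlapped, with -0.02 to 0.03 and -0.08 to 0.08 in the earlier groups and -0.06 to -0.01 and -0.02 to 0.03 at E18.5. With the mean of both as a covariate the differences of the called members moved little while their adjusted p rose past the threshold. Cox5a gave 0.62 in the early comparison (adjusted p = 0.0616), Ndufaf8 -0.62 (0.115) and Ndufa3 -0.46 (0.175). In the late comparison Ndufs8 gave 0.97 (0.0709), Ndufs5 0.49 (0.16), Cox5a 0.44 (0.217) and Cox7c -1.01 (0.171). In that setting 0 members were called in either lineage comparison, and the share of all genes called was 3.23% higher and 3.95% lower in the early and 8.43% and 4.06% in the late one.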

How the data were processed

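RNA of sorted cells was extracted with an RNeasy kit (named Micro by the labels, and Plus Micro by the methods), amplified with the NuGEN Ovation Pico system, labelled with biotin and hybridised. The authors deposited log2 values that had been background-corrected and normalised with Bioconductor, as the methods say. MAS5 stands in the submitters' processing notes with no version, so the exact normalisation is not settled. They lay between 3.23 and 14.97, with array medians of 7.75 to 7.81. Arrays have no read depth, and their number limits the precision. No source used here says how the table's 27094 probe sets were selected.

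After 34 controls were left out, 22343 probe sets had 1 symbol in the platform annotation, 567 several and 4150 none. The first kind was used. For the tests a probe set had to lie above each array's 40th percentile on 3 or more of 12 arrays (16002 did), and the brightest kept probe set stood for its gene. limma 3.58.1 in R 4.3.3 fitted 1 mean per group (8 residual degrees of freedom, 3.6 from moderation). Tests were two-sided, p-values were adjusted by Benjamini-Hochberg over 8792 genes within a comparison, and intervals are 95%. The procedure was tested on simulated data. Other settings, 21 planned and 1 added, were the filter, centring, quantile normalisation, array weights, a variance trend, only the groups compared, a replicate block, a 3′ minus 5′ covariate, the mean of a gene's probe sets, leaving out each array, and leaving out cross-reacting probe sets.

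Genes named are, by rule, up to 4 called members per comparison and direction with the largest difference, the brightest member of each complex, core subunits, tissue isoforms, and in every other list the called gene with the largest difference per comparison and direction. Others were named after their values were seen. Members and lists were chosen with earlier results of these data known. Promoter windows came from a RefSeq table of GRCm38.p6, and 14 members had none in it.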

Additional observations from a re-analysis of the deposited data

Results flagged for a closer look

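Genes outside the chain whose lineage difference changed between the stages by a test of that change were Esrra, with -1.56 ± 0.30 (limma, adjusted p = 0.00582), and Polg, with 1.12 ± 0.31 (adjusted p = 0.048). Esrra was lower in MGE than in CGE cells at E18.5 and was read near the filter level. It lay above that level only on MGE E14.5 replicate 2 (7.41) and CGE E18.5 replicates 2 and 3 (7.90 and 7.28), so the size of this change is not a fold of transcript. Its other probe set (mean 6.28) did not pass the filter. Polg was higher in MGE cells at E18.5, but its value for the change lost its call in 13 of 22 other settings, with an adjusted p up to 0.46. Among them were leaving out any 1 MGE E14.5 array, CGE E16.5 replicate 1 or 2, MGE E18.5 replicate 2 or 3, or CGE E18.5 replicate 1 or 3 (0.91 to 1.20). The respiratory chain members gave 0 calls for this change by limma. At an unadjusted p under 0.05 they gave 5, against 1955 of the 8792 genes tested.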

How the results depend on the processing

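Of 4236 values of 39 named members under 22 other settings, 4115 kept their side of the threshold, 54 lost and 67 gained a call, and 0 called values turned around. Of 2175 values of 20 other named genes 114 lost and 50 gained a call. Counts of called members moved more, and unless stated the cause was not tested. With the mean 3′ minus 5′ signal of both controls as a covariate the lineage comparisons gave 0 higher and 0 lower, at differences close to those without it (Cox5a 0.62 early, Ndufs8 0.97 late) and with fewer calls over all genes (631 early, 1098 late), MGE maturation 1 higher (Ndufb2) and 0 lower, and the change of the lineage difference 1 higher. In that setting 8.88% of all genes were called higher and 5.49% lower in MGE maturation, and 6.24% higher for the change. Array weights gave 4 higher and 9 lower in the early comparison, 0 lower in the late one, 16 higher and 5 lower in MGE maturation and 1 lower (Cox7c) for the change. The shares over all genes were 9.28% and 11.3% early, 7.63% late, 17.6% and 22.1% in MGE maturation and 2.93% for the change. The mean of all kept probe sets of a gene gave 0 higher early (4.64% of all genes) and 1 higher (Ndufb11) in MGE maturation (11.7%). With no filter there was 1 lower early, 2 lower late (Cox7c, Ndufb4), 1 higher in MGE maturation (Cox6b2) and 1 lower for the change (Ndufb4), the last 2 genes being tested only there. The shares over all genes were 5.11%, 9.35%, 12.1% and 1.84% in the same order. Fitting only the groups compared gave 2 higher early, 1 higher late, and 5 higher and 2 lower in MGE maturation. Over all genes the shares were 4.78%, 9.94%, 14.1% and 13.9%. Quantile normalisation gave 3 higher in MGE maturation, against 11.6% of all genes. A variance trend gave 2 higher early (4.5% of all genes), and 5 higher (12%) and 2 lower (10.2%) in MGE maturation. Leaving out probe sets that may read several transcripts, a setting chosen after seeing the data, gave 0 lower in the late comparison and 0 in MGE maturation, since it removes the one of Cox7c. Of all genes 9.89% were then called lower in the late comparison, and 11.3% higher and 9.89% lower in MGE maturation.

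Leaving out 1 array gave 0 to 2 higher and 0 to 3 lower early, 0 to 6 higher and 0 to 1 lower late, 0 to 6 higher and 0 to 2 lower in MGE maturation, 0 to 2 lower in CGE maturation, and 0 to 3 higher and 0 to 1 lower for the change. Of all genes 2.42% to 4.79% were then higher and 3.62% to 6.63% lower early, and 9.9% to 14.1% and 6.93% to 10.3% late. In MGE maturation these shares were 7.86% to 12.2% and 5.24% to 10.6%. In CGE maturation 2.56% to 8.7% were lower, and for the change 5.14% to 7.8% were higher and 0.933% to 2.34% lower. Over all settings the median member difference ran from -0.11 to -0.02 early, from -0.06 to 0.13 late, from 0.06 to 0.15 in MGE maturation, from -0.12 to 0.07 in CGE maturation and from -0.00 (-0.003) to 0.21 for the change, and the late, CGE maturation and change medians turned sign without CGE E18.5 replicate 2. With the replicate block there was 1 lower early, 1 lower in CGE maturation (Sdhaf1) and 1 lower for the change (Cox7c), against 5.51%, 5.82% and 1.92% of all genes. The deviations of same-numbered arrays of different groups gave r -0.17 to 0.28 over 18 pairs, against -0.23 to 0.30 over 36 pairs with other numbers. Between MGE E14.5 and CGE E16.5 they gave 0.07 to 0.28, against -0.23 to 0.13 with other numbers. Between CGE E16.5 and CGE E18.5 they gave -0.17 to 0.13, against -0.185 to 0.30. With 3 arrays per group such values cannot exclude a pairing, so whether the numbers pair the samples is not settled. Without detection calls, values near or below the filter level do not tell a dim transcript from none.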
